A study of Mus musculus with 8 samples.

Results

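This report describes 8 transcription factor genes in cultured mouse molar tooth germs: Twist1, Twist2, Snai1, Snai2, Zeb1, Zeb2, Prrx1 and Prrx2. They are 4 pairs of related genes and were taken by symbol from a table of 35896 genes. Each symbol had 1 row, and all 8 genes passed the filter on low counts. The germs, buds from which molars grow, came in every group from BRE-GFP embryos, in which BMP-Smad activity drives GFP. Germs were cultured for 1 day, and RNA-seq then gave estimated counts per gene. E12.5 germs received SB431542 (which blocks type I receptors of TGF-beta and activin), SIS3 (which blocks Smad3) or the solvent DMSO, and E13.5 germs received DMSO. The labels give no doses. The reference for each of the 3 comparisons is E12.5 DMSO, so the comparisons share those reads. Each group has 2 deposited columns of counts.

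These factors act at the border between epithelial and mesenchymal cell states. Twist1 and Twist2 are basic helix-loop-helix proteins that pair with E proteins such as Tcf3, Tcf4 and Tcf12, and Twist1 is needed in cranial neural crest mesenchyme, the tissue from which dental mesenchyme forms. Snai1, Snai2, Zeb1 and Zeb2 are zinc finger proteins that bind E-box sequences and repress epithelial genes such as Cdh1, which encodes E-cadherin. Zeb2 also binds Smad proteins. Prrx1 and Prrx2 are paired-related homeodomain proteins of limb and craniofacial mesenchyme, and mice without both have defects of the lower jaw and its incisors. TGF-beta is known to raise several of these genes in epithelial cells that turn mesenchymal.

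The libraries set the limits of every value below. In the SB431542, E13.5 DMSO and E12.5 DMSO groups the totals of the 2 columns differed by 0.00212%, 0.00749% and 0.00168%, and over 1-transcript genes the median squared difference between columns was 1.04, 1.08 and 1.04 times that of a random division of 1 set of reads. For genes with 2 to 6 transcripts the median ratio was 1.87, 1.5 and 1.94, and for genes with 7 or more 3.13, 2.36 and 3.14. As classes, such genes thus differed between columns by more than a random division gives. Twist2, Zeb1, Zeb2, Prrx1 and Prrx2 belong to these classes, but not each of them differed so. In the same group order the Zeb1 columns differed by -3.99, 3.3 and -2.39 binomial standard deviations. Those of Zeb2 differed by 0.526, 0.923 and -1.07, and those of Twist2 by 1.88, -0.05 and -0.351. Prrx1 had 2.16, -0.937 and -1.52, and Prrx2 -2.16, -0.39 and -2.36. On the totals and the 1-transcript genes each of these pairs was summed and counted as 1 library, with 28161788, 17519118 and 30975010 counts. The 2 SIS3 columns, of 5995709 and 9427262 counts, differed more in each class (ratios 9.68, 10.8 and 16.3) and stayed separate. The spread in every test thus comes from the pair of SIS3 libraries, with a common coefficient of variation of 29.3%, and comparisons of lone libraries have no replicate check of their own. The TruSeq RNA kit v2 was used for both SIS3 libraries and the SMARTer Universal Low Input kit for all others, so kit and SIS3 cannot be told apart.

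All 8 genes were detected in all 5 libraries, at levels from 12.8 CPM (counts scaled to the library total; Snai1 in SIS3 library 1) to 1593 CPM (Prrx1 with SB431542). Compared as CPM per kilobase of merged exons in E12.5 DMSO, Prrx1 stood at 134 and Twist1 at 121. Prrx2 (31.4), Snai2 (24.4) and Zeb2 (23.2) formed a middle range, and Twist2 (11.9), Zeb1 (11.7) and Snai1 (11.6) a lower one. Neighbouring levels differed by 1.21% to 28.8% within these 3 ranges, and by 285% and 94.8% between them. These steps were not tested. The 29.3% coefficient of variation describes the same gene between libraries and does not measure error between different genes. By this level Prrx1 ranked 233 and Twist1 261 of 18881 genes in E12.5 DMSO, while Snai1 ranked 4410. The order and the ranges depend on the length used. Per kilobase of the longest transcript Zeb2 stood at 50.7, above Prrx2 at 42.7 and Snai2 at 24.4. Zeb1 then stood at 20.7, next to Snai2, so the 3 ranges hold for merged exons only. Prrx1 stood at 227, while Twist1, which has 1 transcript, stood at 121 on both scales. With merged exons Twist1 stood above Prrx1 in both SIS3 libraries and in E13.5 DMSO, and with the longest transcript Prrx1 stood first in all 5 libraries.

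**Figure D1:**
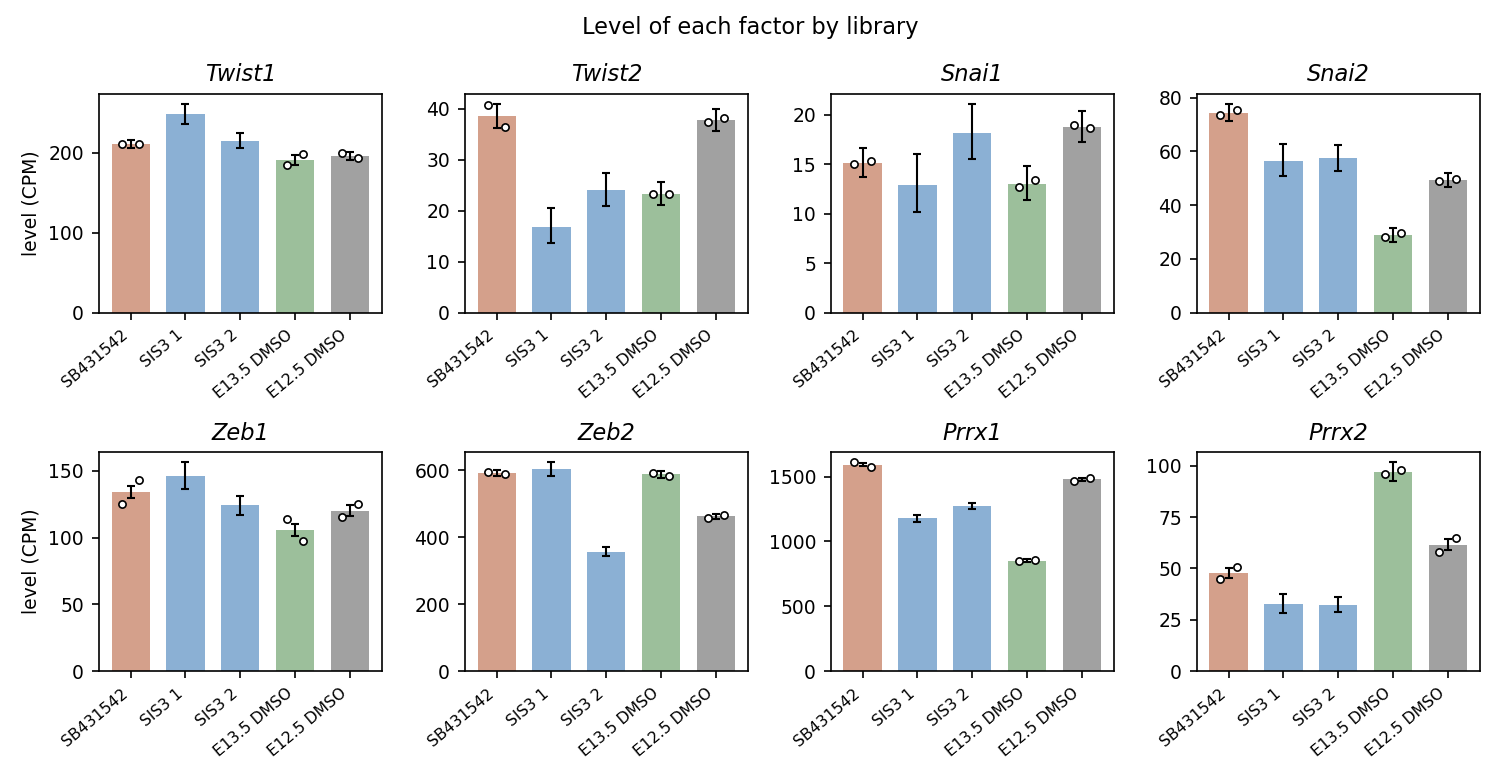
Level of each factor in CPM (bars) in the 5 libraries, with 95% intervals for counting error only; open circles are the 2 columns summed in a library. Twist1 and Zeb1 vary little, Prrx2 is high in E13.5 DMSO at 96.9 CPM, and Snai2 is low there at 28.7 CPM.

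RefSeq promoter sequences (build GRCm38.p6) were matched by symbol for 6 of the 8 genes, with 9 start sites in all, since Zeb2 has 4. The 250 bases before each start were searched on both strands for 5 motifs. The E-box core that Snai and Zeb proteins bind is CAGGTG, and its other strand reads CACCTG. The general E-box, of which that core is 1 form, is CANNTG, with N for any base. The core bound by many homeodomain proteins is TAATTA. The last 2 motifs are Smad motifs, a GC-rich one that reads GGCGCC and a palindrome that reads GTCTAGAC. Snai1 was the 1 gene of the 6 with an E-box of either kind, and Prrx1 the 1 gene with the homeodomain core. Both Smad motifs were in 0 of the 9 windows, of which 2 of Zeb2 overlap. Only these 2 forms were searched, so the windows may hold other Smad sites. Over 32851 promoters of the same length, 17.2% held the Snai and Zeb E-box, 66.2% a general E-box and 4.84% the homeodomain core. The GC-rich Smad motif was in 9.59% of them and the palindrome in 0.167%. The windows of Snai1 and of the Prrx pair are shown, Snai1 for its motif and the pair for its shares in the 2 stages, 5′ to 3′ with the matched motif in capitals:
Snai1 (chr2:167537945-167538194, plus strand; the motif begins 126 bases before the start): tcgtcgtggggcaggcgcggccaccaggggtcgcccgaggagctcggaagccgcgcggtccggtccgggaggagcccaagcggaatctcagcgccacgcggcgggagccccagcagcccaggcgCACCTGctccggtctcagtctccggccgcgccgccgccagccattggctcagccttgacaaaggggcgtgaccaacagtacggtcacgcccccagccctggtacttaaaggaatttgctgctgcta
Prrx1 (chr1:163313651-163313900, minus strand; the motif begins 173 bases before the start): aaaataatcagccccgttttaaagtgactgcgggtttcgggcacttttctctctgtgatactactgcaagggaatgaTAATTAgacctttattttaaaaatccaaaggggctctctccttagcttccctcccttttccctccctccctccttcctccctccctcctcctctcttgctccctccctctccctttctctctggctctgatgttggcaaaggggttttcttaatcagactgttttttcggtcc
Prrx2 (chr2:30845117-30845366, plus strand; 0 of the motifs): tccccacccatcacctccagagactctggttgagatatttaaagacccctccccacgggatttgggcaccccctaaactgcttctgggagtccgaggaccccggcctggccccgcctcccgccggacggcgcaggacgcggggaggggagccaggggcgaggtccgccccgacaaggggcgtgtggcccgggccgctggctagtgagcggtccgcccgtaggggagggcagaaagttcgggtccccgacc
The Prrx2 window had a GC content of 70.0% and the Prrx1 window one of 47.6%. For both genes the RefSeq start lies inside the gene as annotated by GENCODE. The Prrx2 window lies wholly within the annotated gene, and the Prrx1 window overlaps it in part, up to position 163313710. A match describes letters and is not evidence of binding, and no binding or chromatin data were analysed here.

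Across the 3 comparisons none of the 8 genes passed at an adjusted p of 0.05 (quasi-likelihood test of edgeR, Benjamini-Hochberg adjustment over 19022 genes). With SB431542 it called 0 of the 8 and 0.0% of all genes (0 genes). With SIS3 it called 0 of the 8 and 3.82% of all genes, and at E13.5 0 of the 8 and 5.23% of all genes. DESeq2 called 0 of the 8 in each comparison. At an unadjusted p under 0.05, edgeR had 0 of the 8 with SB431542 (1.24% of all genes). With SIS3 it had 2 of the 8, Twist2 and Prrx2, both lower (16.8% of all genes). At E13.5 it had 1 of the 8, Prrx1, lower (24.3% of all genes). These counts are near their backgrounds and set the 8 genes apart in no comparison. The median log2 fold change of the 8 was 0.06 with SB431542, -0.18 with SIS3 and -0.33 at E13.5, against 0 for all tested genes each time.

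**Figure D2:**
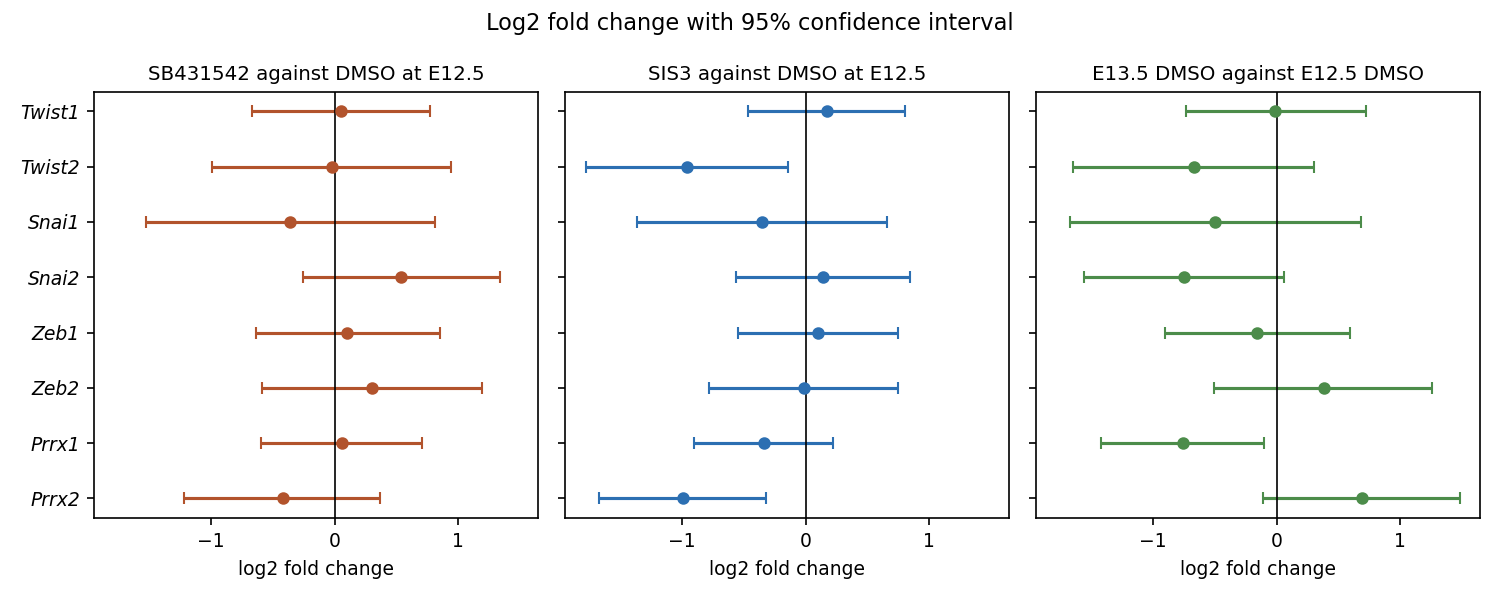
Log2 fold changes of the 8 genes from the edgeR fit (points) with 95% confidence intervals (bars), 1 panel for each comparison against E12.5 DMSO. Twist2 and Prrx2 lie below 0 with SIS3 (-0.96 and -0.99) and Prrx1 at E13.5 (-0.76) with intervals that leave out 0 before adjustment; no adjusted p passed 0.05.

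The intervals say which changes these libraries leave possible. Their half-widths ran from 0.66 to 1.17 log2 units with SB431542, from 0.56 to 1.01 with SIS3 and from 0.66 to 1.18 at E13.5. For Twist1, for example, the SB431542 interval was -0.67 to 0.77. Of the 24 intervals, 13 reached 1 log2 unit, a 2-fold change, in at least 1 direction.

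Of the Twist pair, Twist1 (ENSMUSG00000035799; GRCm38 chromosome 12, 33957671 to 33959829, plus strand) was nearly level. It stood at 211 CPM with SB431542, 248 and 215 CPM with SIS3, 191 CPM in E13.5 DMSO and 197 CPM in E12.5 DMSO. Its highest library was 1.30 times its lowest. The log2 fold changes were 0.05 (SE 0.34) with SB431542, 0.17 (SE 0.29) with SIS3 and -0.01 (SE 0.34) at E13.5. The SIS3 libraries taken singly gave 0.29 and 0.03, and with GC and length trends removed the SIS3 value was 0.70 (edgeR adjusted p = 0.279). Twist2 (ENSMUSG00000007805; chromosome 1, 91801461 to 91848028, plus strand), the paralogue known as Dermo1, had lower levels in the SIS3 and E13.5 libraries. Its columns held 40.8 and 36.4 CPM with SB431542, 16.8 and 24.0 CPM with SIS3, 23.2 and 23.3 CPM in E13.5 DMSO, and 37.4 and 38.2 CPM in E12.5 DMSO. Outside SIS3 the columns of a group were summed as 1 library, so their agreement is no replicate check. The log2 fold change was -0.96 with SIS3 (SE 0.38, edgeR adjusted p = 0.216), -0.67 at E13.5 (SE 0.45, edgeR adjusted p = 0.395) and -0.02 with SB431542 (SE 0.45). In the annotation 46.0% of the 31-base words of Twist2 occur in 1 other gene, and the predicted gene Gm29100 overlaps its exons on the opposite strand. The labels do not say whether counting used strand, so Twist2 counts are uncertain. Twist1 shares 0 such words.

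Of the Snai pair, Snai2 (ENSMUSG00000022676; chromosome 16, 14705852 to 14709385, plus strand), which encodes Slug, was the more abundant per kilobase in every library. Its columns held 73.4 and 75.4 CPM with SB431542, 56.5 and 57.5 CPM with SIS3, 28.0 and 29.5 CPM in E13.5 DMSO, and 48.8 and 49.7 CPM in E12.5 DMSO. The SB431542 library lay above E12.5 DMSO and the E13.5 library below, a 2.59-fold range over the libraries. The log2 fold changes were 0.54 with SB431542 (SE 0.37, interval -0.26 to 1.34), 0.14 with SIS3 (SE 0.33) and -0.75 at E13.5 (SE 0.38, interval -1.56 to 0.06, edgeR adjusted p = 0.241). With the trends on GC content and length removed from each library, the E13.5 value moved to -1.52 and passed the test (edgeR adjusted p = 0.0496). Snai1 (ENSMUSG00000042821; chromosome 2, 167538195 to 167542814, plus strand), which encodes Snail, had the lowest counts of the 8, with 77 and 171 counts in the 2 SIS3 libraries. It stood at 15.1 CPM with SB431542, 12.8 and 18.1 CPM with SIS3, 12.7 and 13.4 CPM in the E13.5 DMSO columns and 18.8 CPM in E12.5 DMSO. All other libraries lay below E12.5 DMSO, with log2 fold changes of -0.36 (SE 0.54), -0.35 (SE 0.47) and -0.50 (SE 0.55), each smaller than its standard error. The SIS3 value differed between the 2 libraries, at -0.59 for library 1 and -0.14 for library 2.

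Of the Zeb pair, Zeb1 (ENSMUSG00000024238; chromosome 18, 5591860 to 5775467, plus strand) was nearly as level as Twist1. It stood at 134 CPM with SB431542, 146 and 124 CPM with SIS3, 106 CPM in E13.5 DMSO and 120 CPM in E12.5 DMSO. Its log2 fold changes were 0.10 with SB431542 (SE 0.35), 0.10 with SIS3 (SE 0.30) and -0.16 at E13.5 (SE 0.35). SIS3 library 1 gave 0.23 and library 2 gave -0.05. Zeb1 has 12 annotated transcripts, the predicted gene Gm10125 overlaps its exons on the opposite strand, and its summed columns differed by more than a random division of reads would give: 1766 against 2011 counts with SB431542, a difference of -3.99 binomial standard deviations. Zeb2 (ENSMUSG00000026872; chromosome 2, 44983632 to 45117395, minus strand), also called SIP1, was the 1 of the 8 on which the 2 SIS3 libraries differed most. It stood at 591 CPM with SB431542, 603 and 357 CPM with SIS3, 587 CPM in E13.5 DMSO and 462 CPM in E12.5 DMSO. SIS3 library 1 lay 0.33 log2 units above E12.5 DMSO and library 2 lay 0.47 below it, so the fitted -0.01 (SE 0.35) is a mean of opposite values. With SB431542 the log2 fold change was 0.30 (SE 0.40) and at E13.5 0.38 (SE 0.40). The E13.5 value turned to -0.21 when GC and length trends were removed. Zeb2 has 29 annotated transcripts, and the antisense gene Zeb2os overlaps its exons. Zeb1 and Zeb2 share 2.75% and 3.31% of their 31-base words with other genes, less than Twist2, but without strand the reads of an overlapping opposite gene cannot be told apart in any of these 3 genes.

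Of the Prrx pair, the 2 genes stood on opposite sides of E12.5 DMSO in the E13.5 library. Prrx1 (ENSMUSG00000026586; chromosome 1, 163245119 to 163313710, minus strand) held 847 and 860 CPM in the E13.5 DMSO columns against 1468 and 1489 CPM in those of E12.5 DMSO. Its log2 fold change at E13.5 was -0.76 (SE 0.31, interval -1.42 to -0.10, edgeR adjusted p = 0.151). Prrx2 (ENSMUSG00000039476; chromosome 2, 30834972 to 30881251, plus strand) held 96.0 and 97.8 CPM in the E13.5 DMSO columns against 58.2 and 64.9 CPM in those of E12.5 DMSO. Its log2 fold change was 0.69 (SE 0.37, interval -0.11 to 1.48, edgeR adjusted p = 0.278). Each stage is 1 library, so the agreement of its 2 columns is no replicate check for either gene. With GC and length trends removed the values were -1.04 for Prrx1 (edgeR adjusted p = 0.0732) and 0.915 for Prrx2 (edgeR adjusted p = 0.133). With SIS3, Prrx2 held 32.9 and 32.1 CPM, the lowest of the 8 columns, and its log2 fold change of -0.99 (SE 0.31, interval -1.67 to -0.32) had the smallest adjusted p of any of the 8 genes, 0.107 by edgeR. Each SIS3 library gave a similar value, -0.95 and -1.03. The value shrank to -0.48 when GC and length trends were removed (edgeR adjusted p = 0.456). Prrx1 with SIS3 stood at 1180 and 1274 CPM, also both below E12.5 DMSO, with a log2 fold change of -0.34 (SE 0.26, edgeR adjusted p = 0.571). With SB431542, Prrx1 stood at 1610 and 1577 CPM (log2 fold change 0.06, SE 0.30) and Prrx2 at 44.9 and 50.5 CPM (-0.42, SE 0.37).

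The balance within each pair does not depend on scaling between libraries and was described without a test. Prrx2 made up 39.1% of the per-kilobase level of the Prrx pair in E13.5 DMSO (counting interval 37.9 to 40.3) against 19.0% in E12.5 DMSO (18.3 to 19.7). Its share was 14.4% with SB431542 and 13.6% and 12.46% with SIS3. In per-kilobase terms Prrx1 was thus 1.56 times Prrx2 in E13.5 DMSO and 4.26 times in E12.5 DMSO. The Twist2 share of the Twist pair was 8.57% with SB431542, 3.36% and 5.41% with SIS3, 5.86% in E13.5 DMSO and 8.97% in E12.5 DMSO. The SIS3 and E13.5 shares of Twist2 lay below the E12.5 DMSO counting interval. This does not set Twist2 apart. The Snai2, Zeb2 and Prrx2 shares of every other library also lay outside their E12.5 DMSO counting intervals. The Snai2 share of the Snai pair was 79.8% with SB431542, 77.9% and 71.8% with SIS3, 63.9% in E13.5 DMSO and 67.8% in E12.5 DMSO. The Zeb2 share of the Zeb pair was 69.4% with SB431542, 68.0% and 59.7% with SIS3, 74.1% in E13.5 DMSO and 66.4% in E12.5 DMSO, so the 2 SIS3 libraries lay on opposite sides of E12.5 DMSO. Using the longest transcript, the Prrx2 share was 34.0% in E13.5 DMSO and 15.9% in E12.5 DMSO. The exons of Prrx2 have a GC content of 63.6% and those of Prrx1 one of 43.6%, and the fold changes with GC trends removed are given with the pair above.

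**Figure D3:**
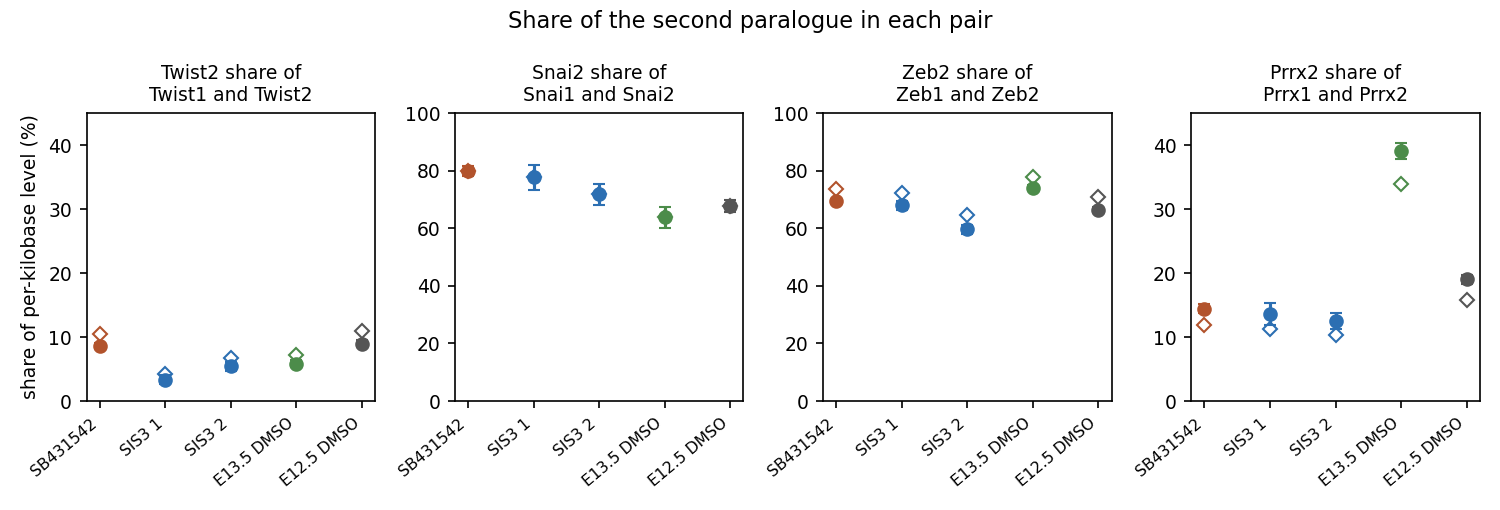
Share of the second paralogue in the per-kilobase level of each pair, in percent, for the 5 libraries; filled points use merged exons with 95% counting intervals, open diamonds the longest transcript. The Prrx2 share stands at 39.1% in E13.5 DMSO against 19.0% in E12.5 DMSO; the axes of the Twist and Prrx panels end at 45%.

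The 8 genes did not share a profile over the libraries. The standard deviation of log2 level over the 5 libraries was 0.12 for Twist1 and 0.15 for Zeb1, smaller than for all but 3.12% and 5.63% of genes, and 0.71 for Prrx2, larger than for 80.4% of genes (median of all genes 0.41). Likeness was measured as the root mean square difference of centred log2 levels over 5 libraries. Twist1 and Zeb1 differed by 0.07, the least of any of the pairs formed by the 8 genes, and 0.446% of 12344 genes lay closer to Zeb1 than Twist1 did. Prrx2 and Snai2, which differed by 0.99, were the least alike, and Prrx1 and Prrx2 differed by 0.79. The 2 nearest genes were Rab21 and Nipbl for Twist1 (0.030 and 0.031), Daam1 and Ilrun for Zeb1 (0.026 and 0.029), and Cand2 and R3hdm4 for Twist2 (0.032 and 0.040). They were Pkm and Srsf2 for Snai1 (0.052 and 0.057), Slc2a4 and Resf1 for Snai2 (0.056 and 0.079), and Rps6ka5 and Pgm2l1 for Zeb2 (0.051 and 0.052). For Prrx1 they were Macroh2a1 and Poc1b (0.030 and 0.034) and for Prrx2 Rhoa and Tmod3 (both 0.088).

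Genes that work with these factors were read in the same fit. Of the 7 E proteins and Id proteins (the Id proteins bind E proteins and keep them from partners such as Twist), 0 passed the test in any comparison. At E13.5 all 7 had negative log2 fold changes (median -0.31, against 0 for all tested genes), with Id1 at -1.31 (SE 0.44, edgeR adjusted p = 0.102) and Id2 at -0.88 (SE 0.34). Such signs were not particular to these 7. At E13.5 the 12 corepressor genes had 9 negative values and the 9 turnover genes 9. By contrast the 27 epithelial genes had 11 and the 20 mesenchymal genes 9. These signs were not tested. The E protein gene Tcf4 stood at 0.49 (SE 0.31) with SB431542 and 0.44 (SE 0.28) with SIS3, and Id4 at -0.28 (SE 0.41) and -0.48 (SE 0.35). Of the 12 corepressor genes, which include Ctbp1, Ctbp2 and Hdac1, 0 passed, with medians of -0.06, -0.16 and -0.21 in the SB431542, SIS3 and E13.5 comparisons. With SIS3 the Snail partner Ajuba stood at 0.84 (SE 0.34) and Ctbp2 at -0.81 (SE 0.31), and with SB431542 they stood at -0.24 and -0.26. At E13.5 Sin3a stood at -0.52 (SE 0.41) and Ctbp1 at -0.48 (SE 0.34). Of the 9 tested genes for protein turnover, such as Gsk3b, Btrc and Fbxw7, 0 passed, with medians of 0, 0.18 and -0.33. At E13.5 Btrc, an F-box protein that marks Snail for degradation, stood at -0.61 (SE 0.36) and the kinase gene Csnk1a1 at -0.42 (SE 0.32). The deubiquitinase gene Usp27x stood at 0.18 with SB431542 (SE 0.56) and 0.79 with SIS3 (SE 0.50), Fbxw7 at -0.20 with SB431542 (SE 0.37) and Fbxo45 at 0.33 with SIS3 (SE 0.34). Among 11 tested relatives of the 8 factors, 1 passed: Meox1, a homeobox gene, fell with SIS3 (log2 fold change -3.01, SE 0.71, edgeR adjusted p = 0.0322), on 18 counts in the 2 libraries together. Hand2 and Meox2 stood at 0.31 (SE 0.75) and -0.34 (SE 0.56) with SB431542, and at -1.40 (SE 0.78) and -1.12 (SE 0.57) at E13.5. Of 17 cranial mesenchyme genes, 1 passed: Dlx2, a homeobox gene of the branchial arches, fell with SIS3 (-1.33, SE 0.33, edgeR adjusted p = 0.0465). The same 17 genes had a median of -0.35 at E13.5, where 15 were negative and 0 passed, with Dlx5 at -0.96 (SE 0.38) and Dlx6 at -0.55 (SE 0.40). With SB431542 Dlx2 stood at -0.63 (SE 0.40) and Msx1 at -0.61 (SE 0.34).

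The output of TGF-beta and activin signalling was low with SB431542, with 9 of 9 tested genes negative (median -0.54) and 0 passing the test. Pmepa1, a direct Smad target, stood at -1.93 (SE 0.41, edgeR adjusted p = 0.534) and Ltbp2 at -2.31 (SE 0.74). The 8 factors had a median of 0.06 in that library. With SIS3 1 of the 9 fell (Ltbp2, a microfibril gene, -3.10, SE 0.68, edgeR adjusted p = 0.022), and at E13.5 1 rose (Tagln, a contractile gene, 1.77, SE 0.48, edgeR adjusted p = 0.0482). Among 27 tested epithelial genes, the kind that Snai and Zeb proteins repress, 0 passed in any comparison. Their median log2 fold change was -1.18 with SB431542, where 23 were negative, 0.42 with SIS3 and 0.17 at E13.5. The SIS3 median joins unlike libraries. The list summed to 167 CPM in SIS3 library 1 and 553 CPM in library 2, against 253 CPM in E12.5 DMSO. With SB431542 the desmosome gene Dsp stood at -2.39 (SE 2.27) and the keratin gene Krt8 at -2.02 (SE 0.95). With SIS3 the membrane protease gene St14 stood at 1.35 (SE 0.41, edgeR adjusted p = 0.0956) and the tight junction gene Cldn4 at 1.25 (SE 0.88). Cldn4 held 2.84 and 12.7 CPM in the 2 SIS3 libraries against 3.13 CPM in E12.5 DMSO. At E13.5 St14 stood at 1.53 (SE 0.45, edgeR adjusted p = 0.0655) and Krt19 at 1.65 (SE 1.49). Cdh1 stood at 6.39 CPM with SB431542, 5.34 and 27.8 CPM with SIS3, 15.5 CPM in E13.5 DMSO and 14.8 CPM in E12.5 DMSO, so the 2 SIS3 libraries lay on opposite sides of E12.5 DMSO. Of 20 mesenchymal genes, 5 fell with SIS3: the collagen genes Col1a1 (-2.53, SE 0.25) and Col3a1 (-1.16, SE 0.27), the matrix genes Sparc (-2.07, SE 0.28) and Mmp2 (-1.36, SE 0.28), and the intermediate filament gene Vim (-1.13, SE 0.26). Their edgeR adjusted p ran from 6.41e-05 to 0.0335. None passed in the other comparisons, where the medians of the 20 were -0.28 with SB431542 and 0.12 at E13.5. Col1a1 stood at -0.87 (SE 0.30) with SB431542 and 0.87 (SE 0.30) at E13.5, and Fap at 0.75 (SE 2.14) and 1.38 (SE 2.17).

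Markers of other cell types moved between libraries, and in bulk tissue fewer cells of a type and less RNA per cell cannot be told apart. Markers of dental and oral epithelium (14 genes) summed to 70.6 CPM with SB431542, 96.6 and 364 CPM with SIS3, 290 CPM in E13.5 DMSO and 217 CPM in E12.5 DMSO, and none of the 13 tested passed. Thus the epithelial sum was low in the SB431542 library and in 1 of the 2 SIS3 libraries. Endothelial markers summed to 58.7 and 60.0 CPM with SIS3 against 470 CPM in E12.5 DMSO, and 12 of 14 fell. Macrophage markers summed to 17.0 and 14.4 CPM with SIS3 against 81.5 CPM (6 of 14 fell, and 1 and 3 genes were at 0 in the SIS3 libraries). For pericyte markers the sums were 219 and 280 against 410 CPM (3 of 7 tested fell), and for skeletal muscle markers 291 and 243 against 833 CPM (6 of 12 fell). Neural and Schwann markers summed to 48.1 to 57.7 CPM in the 5 libraries, with 0 of 11 tested passing. In the SB431542 library the endothelial, macrophage, pericyte and muscle sums were 523, 72.2, 311 and 895 CPM, and 0 of these markers passed. In E13.5 DMSO they were 506, 142, 466 and 829 CPM, and 2 muscle markers fell. Both had 0 counts in that 1 library, against 239 and 111 in E12.5 DMSO. Of the 12 muscle markers 3 were positive and 9 negative at E13.5. Dental mesenchyme markers (12 genes, Prrx1 among them) were present in all libraries, at 4088 CPM with SB431542, 3490 and 2889 CPM with SIS3, 2993 CPM in E13.5 DMSO and 4097 CPM in E12.5 DMSO. Twist2 and Prrx2 were thus low in the same 2 libraries in which vascular, macrophage and muscle markers were low. Twist2 was also low in E13.5 DMSO, at 23.2 CPM against 37.8 CPM in E12.5 DMSO. There the endothelial, macrophage and pericyte sums were above those of E12.5 DMSO, and Prrx2 was at its highest (96.9 CPM). The part of these cells in the differences was not tested.

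**Figure D4:**
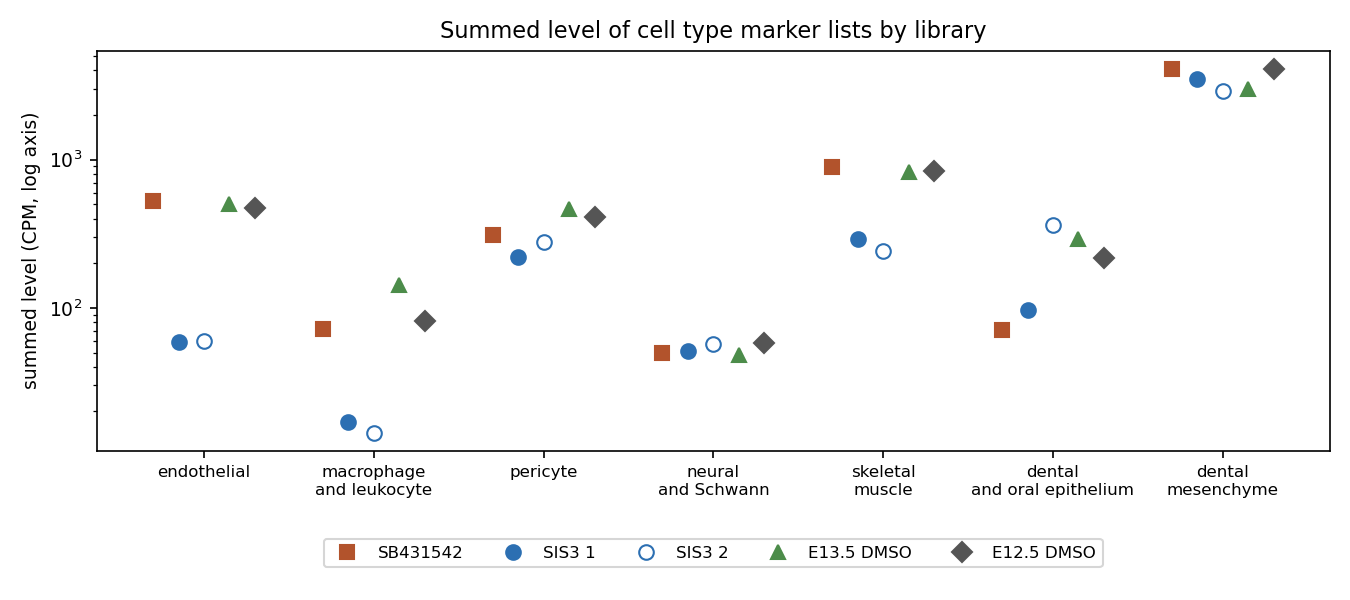
Summed level of each list of cell type markers in the 5 libraries, in CPM on a log axis. Endothelial markers lie at 58.7 and 60.0 CPM in the SIS3 libraries against 470 CPM in E12.5 DMSO, and epithelial markers at 70.6 CPM with SB431542 against 217 CPM.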

How the data were processed

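RNA-seq was analysed from 8 deposited columns, 2 for each of 4 groups, matched to samples by name. Estimated counts were deposited as whole numbers, unscaled. Per the submitters' processing notes, the tools included Salmon and HISAT2, besides SAMtools, deepTools and DESeq2, with the build mm10 and no versions or roles. The members and gene lists were chosen with earlier results of these data known. Columns of a group were summed where totals differed by under 0.1% and the median squared difference over 1-transcript genes, predicted genes and receptors left out, was under 1.5 times the binomial one. This criterion was set after the values were seen. A first one, a mean ratio under 1.5 with predicted genes kept, would have summed none (2.81 for SB431542, 1.59 for E13.5 DMSO and 2.19 for E12.5 DMSO), while with them left out the means were 1.19, 1.17 and 1.42.

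Tests used edgeR 4.0.16 in R 4.3.3 (TMM, filterByExpr, robust quasi-likelihood F test, group as the only factor) on 5 libraries, with 1 residual degree of freedom plus a median of 12.5 borrowed across genes, and Benjamini-Hochberg adjustment over 19022 genes. DESeq2 1.42.0 was an alternative. The scripts were tested on simulated counts. Gene positions and lengths are from GENCODE on GRCm38 and promoters from RefSeq. Nothing in the sources used here says that columns or libraries came from separate cultures, so the spread may be technical. Counting intervals (exact, 95%) cover counting error only. The text names all 8 factors. From each list of companion genes it names, per comparison, the called genes or, with none called, the 2 of largest absolute log2 fold change with a mean of at least 5 CPM. Marker lists are given as counts and sums. It also names for each factor the 2 genes of nearest profile. Cdh1, Hdac1 and Gsk3b are named outside that rule, chosen after values were seen. Protein sequences were not used here.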

Additional observations from a re-analysis of the deposited data

How the results depend on the processing

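How the columns are counted decides whether any of the 8 genes passed. With all 8 columns as replicates, edgeR called 1 of the 8 with SB431542 (Snai2, higher), 3 with SIS3 (Twist2, Prrx1 and Prrx2, lower) and 5 at E13.5 (Prrx2 higher, and Twist2, Snai1, Snai2 and Prrx1 lower), against 0 in each with summed columns. That fit takes the columns as independent, although over 1-transcript genes those of 3 groups differed about as a random division of reads would (more for genes of several transcripts), and it called 259, 6764 and 9742 of 17748 genes, against 0, 727 and 995 of 19022. Adding the replicate number as a block gave 0, 3 and 4 of the 8 genes. Same-numbered columns did not deviate together (correlations -0.028 to 0.003). Each correlation involves a group whose columns were summed as a division of 1 library, where little shared deviation could appear. The correlations therefore cannot show whether the numbers are a pairing. With GC and length trends removed, 1 gene passed at E13.5 (Snai2), the median of all genes moved by 0.116 with SIS3 and -0.181 at E13.5, and the E13.5 calls turned to 270 higher and 423 lower, against 772 and 223; Twist1 with SIS3 then stood at 0.70 (edgeR adjusted p = 0.279). In the other settings, and without any 1 column, 0 of the 8 passed wherever a test was possible. Without either SIS3 library there is no residual degree of freedom and values carry no test.

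Of the log2 fold changes of the 8 genes, 19 of 416 values changed sign, all but 3 of them within 0.10 of 0. Many of the 416 leave out 1 column that the comparison does not use or that was summed with its pair. Such values could hardly change, so the count is no measure of stability. Twist2 with SB431542 was 0.03 by library totals, and -0.10 to 0.06 without single columns. Snai1 with SIS3 was 0.15 and Zeb2 at E13.5 -0.21 with GC and length trends removed. Zeb2 with SIS3 was 0.03 by DESeq2 size factors, without receptor and predicted genes, and by DESeq2, 0.05 by library totals, and -0.47 to 0.34 without single columns. Zeb1 with SIS3 was -0.05 without SIS3 library 1. Twist1 at E13.5 was 0.01 with 8 columns, with or without the block, 0.04 by DESeq2 size factors and by DESeq2, 0.09 with a mean of at least 5 CPM, 0.06 without receptor and predicted genes, and -0.05 to 0.05 without single columns. Over all genes, calls fell to 130 with SIS3 and 192 at E13.5 with a mean of at least 5 CPM, to 323 and 59 without receptor and predicted genes, and rose to 1414 and 2062 with no filter, where SB431542 had 27; without E13.5 column 2 there were 399 at E13.5. DESeq2 called 6, 681 and 569. The cause of these shifts was not tested.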
